A study of Rattus with 9 samples.

Results

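The 8 tight junction genes described here were Cldn1, Cldn3, Cldn4, Cldn5, Cldn7, Ocln, Tjp1 and F11r, picked by symbol from the 23836 gene symbols of the count matrices. All 8 are rows of every matrix, and their UMI counts (unique molecular identifiers, each standing for a captured mRNA molecule) were compared across epithelial and endothelial cells of the rat bile duct and across the groups labelled sham, ctrl and treat. The sham group had 3 samples of 1 library each. The ctrl group came from a rat liver transplantation model with ischemic injury, and the treat group had in addition its splenic and gastric-duodenal arteries tied so that arterial flow rose. The transplanted groups were sampled at days 1, 3 and 7, with 1 sample for each group and day and 9 libraries in ctrl and 8 in treat. The animals were Sprague-Dawley rats of both sexes, and what the sham operation consisted of is not given in the labels. Library 1 of treat day 3 was not analysed here. Whether libraries of 1 sample stem from different animals is not stated in the labels. They were summed, and the 3 samples of a transplanted group differ in day as well as in animal. The group comparisons fit the day as a term shared by ctrl and treat, so their p-values measure the spread that is left between samples after the day is taken out.

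Tight junctions seal the space between neighbouring cells at their apical side and keep bile in the duct lumen and plasma in the vessel. Claudins (here Cldn1, Cldn3, Cldn4, Cldn5 and Cldn7) are membrane proteins with 4 transmembrane stretches that polymerise into the junction strands and set which ions pass. Occludin (Ocln) is a strand protein of the MARVEL family, and junctional adhesion molecule A (F11r) is an immunoglobulin-like adhesion protein of epithelium, endothelium and some blood cells. Zonula occludens protein ZO-1 (Tjp1) lies under the membrane and ties the strands to actin. Cldn5 is best known as the barrier claudin of endothelium.

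After filtering, 140452 cells were sorted into 47 clusters, of which 36 could be named from fixed marker genes. The tight junction genes were left out of the genes used for clustering and are in no marker list. Cells with biliary epithelial markers (BEC-like) numbered 21140 in 5 clusters, and cells with blood endothelial markers (EC-like) numbered 7580 in 3 clusters. Names rest on the markers detected and on the 10 genes of largest fold over the median cluster. By fold over all other cells, 2 goblet and 0 BEC markers led the BEC-like cluster of Gkn3 and Agr2 (1016 cells, 8 of 12 BEC markers detected), 1 goblet and 0 BEC markers that of Wfdc21 and Duox2, and 1 lymphatic and 0 EC markers the EC-like cluster of Dnase1l3 (128 cells), so the group comparisons were also made without each of them. BEC-like cells gave 3151875 to 56256084 UMIs per sample and EC-like cells 1375373 to 9361001. The summed level of 12 BEC markers was 15559 to 22009 CPM (UMIs scaled to the same total in each sample) in BEC-like cells and 240 to 515 CPM in EC-like cells. Libraries 2 and 3 of ctrl day 3 lost 2472 of 2914 and 3961 of 4307 barcodes to the limit on hemoglobin reads, so that sample rests largely on its library 1. Cell barcodes were shared by at most 1.19% of the smaller library of any pair. A cluster of 3793 cells with 7 of 7 tuft cell markers, led by Rgs13, was kept out of both classes, as was a cluster of 3459 cells in which 2 of 12 BEC markers were detected, fewer than the 3 a name needs, and which made up 0.206 to 8.37% of the cells of a sample, most in treat day 1.

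The 8 genes fell into an epithelial set, a set found in both epithelium and endothelium, and an endothelial gene. Of the set found in both, Tjp1 was also present in glia-like, smooth muscle and fibroblast-like cells. Levels are given in this part as plain CPM, that is the UMIs of the gene over all UMIs of the class, scaled to CPM, as mean ± SD over samples with at least 20 cells of the class. In BEC-like cells (n = 9) Cldn3 stood at 414.7 ± 56.5 CPM, Cldn4 at 831.6 ± 209 CPM and Cldn7 at 407 ± 103 CPM. In the 10 named classes other than BEC-like, goblet-like, EC-like and LEC-like cells and the acinar-like cells of a lone sample, these claudins averaged at most 15.6 CPM. Cldn1 stood at 42.1 ± 28.3 CPM in BEC-like cells, with samples from 12.6 to 86.7 CPM, and averaged at most 34.8 CPM in those 10 classes, reached in mast-like cells (34.8 ± 20.3 CPM, n = 4, from 1 to 13 UMIs in a sample). Ocln stood at 78.8 ± 10.8 CPM in BEC-like cells and averaged at most 12.7 CPM in those 10 classes, reached in macrophage-like cells.

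Goblet-like cells, the mucus-secreting cells of the lining, carried Cldn3, Cldn4, Cldn7, F11r and Ocln in ranges that overlapped those of BEC-like cells. In the 3 samples with enough of these cells Cldn4 was 682, 1287 and 1321 CPM, and Cldn3 was 377, 407 and 519 CPM. Cldn1 was at 0 UMIs in all 3, where 3 counts would have been 9.83 CPM (treat day 1), 22.2 CPM (ctrl day 1) and 70.8 CPM (sham 3), so that in sham 3 the mean level of BEC-like cells would not have been detectable.

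F11r and Tjp1 were found in both epithelium and endothelium. F11r was 362 ± 133 CPM in BEC-like cells, 238 ± 40.3 CPM in lymphatic endothelial (LEC-like) cells (n = 8) and 197 ± 55.7 CPM in EC-like cells, and 303 ± 146 CPM in goblet-like cells (n = 3), with overlapping ranges between each class and the next. Tjp1 followed another order, with 194 ± 48.2 CPM in EC-like, 159 ± 78.2 CPM in LEC-like, 148 ± 22.2 CPM in glia-like (n = 6), 88.5 ± 18.2 CPM in smooth muscle (VSMC-like), 80.3 ± 21.8 CPM in BEC-like and 50.2 ± 17.8 CPM in fibroblast-like cells. Ranges overlapped between neighbours in this order except between glia-like (127 to 182 CPM) and VSMC-like cells (59.0 to 114.5 CPM). In the 10 other classes no other member averaged above 34.8 CPM. Cldn5 was highest in LEC-like cells at 1022 ± 338 CPM, followed by EC-like cells at 125 ± 76.2 CPM without overlap of their ranges, and stood at 15.4 ± 12.7 CPM in VSMC-like cells and 0.221 ± 0.175 CPM in BEC-like cells.

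**Figure D1:**
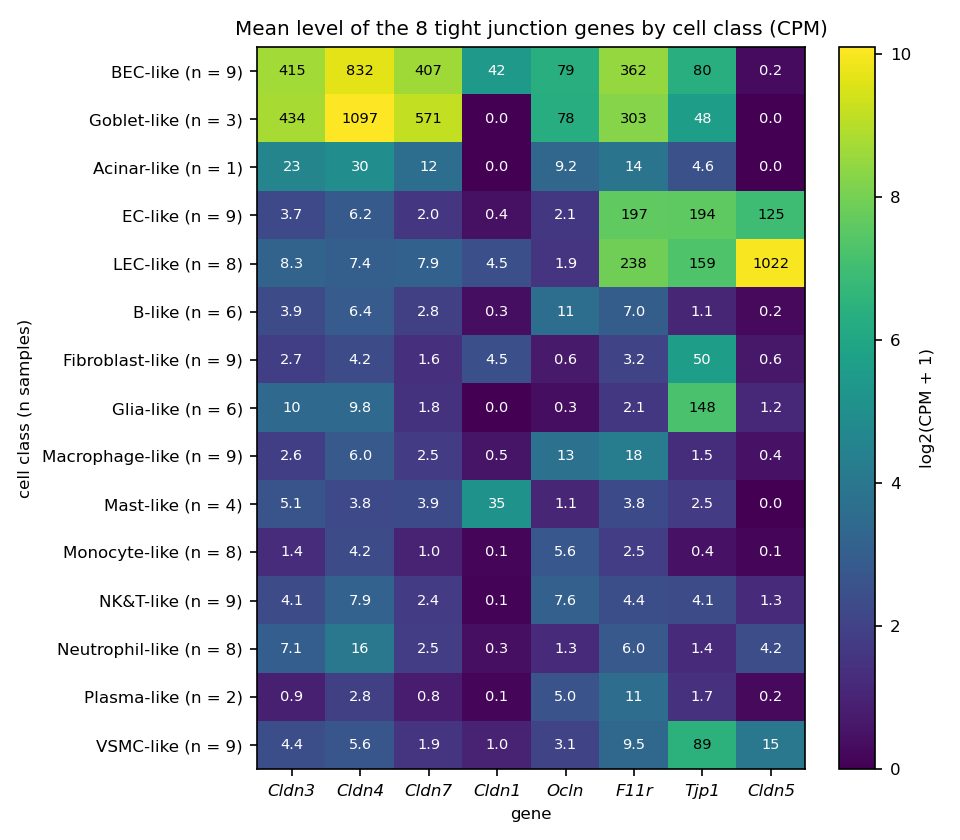
Mean level of each of the 8 genes (columns) in the 15 named cell classes (rows, with the number of samples that had at least 20 cells). The printed values are CPM and the colour is log2(CPM + 1). Cldn3, Cldn4, Cldn7, Cldn1 and Ocln are high in the BEC-like row, Cldn5 in the LEC-like and EC-like rows (1022 and 125 CPM), and F11r and Tjp1 in both. Tjp1 is also high in the glia-like (148 CPM) and VSMC-like (88.5 CPM) rows.

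BEC-like cells were set against EC-like cells of the same samples to ask which members belong to the epithelium and which to the endothelium. Of the genes tested, 66.9% passed this comparison at an adjusted p under 0.05, so a call by itself says little, and the size of the difference carries the description. All 8 members passed it, 6 higher in BEC-like and 2 higher in EC-like cells, and each did so in 9 of 9 samples. The exact two-sided sign-flip permutation test over the samples gave p = 0.00391 for each of the 8, which is the smallest that 9 samples allow (adjusted over the 8, 0.00391). The log2 fold changes from edgeR with the sample as a block, which follow, are on the TMM-normalised scale.

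The strand-forming claudins Cldn1, Cldn3, Cldn4 and Cldn7 were higher in the epithelium. Cldn7 was higher in BEC-like cells by 7.66 ± 0.37 (log2 fold change ± SE), Cldn1 by 7.13 ± 0.27, Cldn4 by 7.09 ± 0.25 and Cldn3 by 6.87 ± 0.33 (adjusted p from 4.73e-11 to 8.62e-10). The fitted value of Cldn1 rests on an EC-like level near 0 (mean 0.362 CPM), and on the log2(CPM + 1) scale of the exact test the mean differences were 7.23 for Cldn7, 6.94 for Cldn4, 6.69 for Cldn3, 4.88 for Ocln and 4.75 for Cldn1. Over the 9 samples Cldn4 ran from 466 over a median of 794 to 1171 CPM in BEC-like cells and from 2.36 over 6.95 to 9.66 CPM in EC-like cells. Cldn7 ran from 284 over 384 to 582 CPM in BEC-like cells and from 0.255 over 1.57 to 5.65 CPM in EC-like cells. No sample of either class came near the other for these claudins.

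Ocln differed by 5.38 ± 0.27 (adjusted p = 1.30e-09). Its BEC-like samples lay between 65.6 and 99.0 CPM and its EC-like samples between 0 and 5.09 CPM. F11r was higher in BEC-like cells by 0.82 ± 0.084, or 1.77-fold (adjusted p = 1.43e-06), although the ranges over samples overlapped, from 268 to 686 CPM against 146 to 316 CPM. Tjp1 was lower in BEC-like cells, with a log2 fold change of -1.30 ± 0.14, or 2.46-fold (adjusted p = 2.23e-06). Its BEC-like samples ran from 55.1 over a median of 72.7 to 121 CPM and its EC-like samples from 90.2 over 211 to 235.5 CPM. Cldn5 was lower in BEC-like cells by a log2 fold change of -8.92 ± 0.21 (adjusted p = 1.82e-12), at no more than 0.494 CPM in any BEC-like sample against at least 60.05 CPM in any EC-like sample.

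The low levels of these genes in the wrong class were compared with what RNA free in the cell suspension was estimated to give, from empty droplets and genes of other cell types. Free RNA made up an estimated 1.33 to 7.54% of the UMIs of BEC-like cells and 1.36 to 7.35% of those of EC-like cells. For EC-like cells this estimate came to a median over samples of 100.5% of the observed Cldn3 UMIs, 98.8% of the Cldn4 UMIs and 126% of the Cldn7 UMIs. It came to 58.2% for Cldn1 and 34.0% for Ocln. Counts were low for Cldn1 (0 to 2 UMIs in a sample), Ocln (0 to 17) and Cldn7 (1 to 26) alike. The same estimate was at most 3.202% of the F11r, 1.21% of the Tjp1 and 0.687% of the Cldn5 UMIs of EC-like cells. In BEC-like cells it came to a median of 171% of the Cldn5 UMIs and at most 2.54% of those of any other member. Cldn3, Cldn4 and Cldn7 in EC-like cells and Cldn5 in BEC-like cells therefore stood near the level estimated for free RNA, while F11r and Tjp1 stood far above it in both classes.

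The share of cells with at least 1 UMI showed the same split, with NK&T-like and neutrophil-like cells as the reference for background. Shares are given with their 95% Wilson interval, which covers counting error only. Cldn4 was seen in 78.6% of BEC-like cells (78.1 to 79.2%), 2.40% of EC-like cells, 1.82% of NK&T-like cells and 2.31% of neutrophil-like cells. Cldn3 was seen in 77%, 1.52%, 0.839% and 0.884%, and Cldn7 in 74.2%, 0.844%, 0.571% and 0.523% of the same classes in that order. After each cell was thinned to 2000 UMIs and shallower cells were left out, the EC-like shares were 1.15% for Cldn4, 0.741% for Cldn3 and 0.414% for Cldn7, each between those of NK&T-like (0.924, 0.456 and 0.312%) and neutrophil-like cells (2.43, 0.918 and 0.439%), which should lack them, and are read as background. Median depth was 6268 UMIs in BEC-like, 3974 in EC-like, 3367 in NK&T-like and 1705 in neutrophil-like cells.

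F11r was seen in 74.4% of BEC-like and 51.0% of EC-like cells against 1.23% of NK&T-like cells. Tjp1 was seen in 39% of BEC-like, 52.1% of EC-like and 50.3% of LEC-like cells against 1.18% of NK&T-like cells. After the same thinning (17459 BEC-like, 5801 EC-like, 913 LEC-like, 16674 NK&T-like and 5013 neutrophil-like cells were deep enough), F11r came to 45.6% and 31.5% in BEC-like and EC-like cells, and Tjp1 to 14.2% and 30.8%. Cldn1 was seen in 15.8% of BEC-like cells (15.3 to 16.2%), or 5.94% after thinning, against 0.0496% of NK&T-like cells. At its low level a cell that carries Cldn1 can show no UMI at this depth. These shares therefore cannot tell what part of the epithelium carries it. Cldn5 was seen in 87.0% of LEC-like cells (84.9 to 88.8%) and 16.1% of EC-like cells (15.2 to 16.9%), or 79.2% and 11.9% after thinning.

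Within the epithelium the members were not spread evenly over the 5 BEC-like clusters. The values that follow describe clusters and carry no test. A cluster of 3736 cells led by Wfdc21, Duox2 and Krt13, genes of a mucosal surface (Duox2 makes hydrogen peroxide at the apical membrane), held the highest mean among the 5 clusters of every member other than Cldn5. In this cluster 9 of 12 BEC markers were detected, without Sox9, Cftr and Spp1, beside 3 goblet markers. Cldn1 averaged 144 ± 54.4 CPM in it (n = 9) and 17.6 ± 7.42 CPM in the other BEC-like cells, 8.17 times as high. Cldn4 averaged 2424 ± 615 against 520 ± 184 CPM, F11r 728 ± 216 against 264 ± 45.3 CPM and Tjp1 138 ± 32.7 against 64.5 ± 14.2 CPM. Ocln averaged 125 ± 17 against 66.8 ± 9.68 CPM and Cldn3 627 ± 141 against 377 ± 55.4 CPM. Each of these 6 genes was higher in the Duox2/Wfdc21 cluster in 9 of 9 samples. Cldn7 was 442 ± 101 against 400 ± 104 CPM and higher in 8 of 9 samples. The share of all genes that were higher in this cluster was not counted. These counts therefore do not set the members apart from other genes.

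The same cluster stood apart in some other junction genes, and the wider list of these genes was split. Cldn23 averaged 119 ± 38.6 against 19.5 ± 4.08 CPM, Tjp3 (ZO-3) 172 ± 23.5 against 79.6 ± 19.4 CPM and cingulin (Cgn), which links junctions to actomyosin, 100.1 ± 17.6 against 39.3 ± 8.09 CPM, each higher in 9 of 9 samples. Cldn2, which forms pores for small cations, went the other way in 9 of 9 samples, at 16.7 ± 9.88 CPM in the cluster and 284 ± 76.7 CPM in the rest. The polarity gene Pard6b was higher in the cluster in 9 of 9 samples, at 95.4 ± 27.2 against 39.4 ± 13.7 CPM. Cldn6 and Esam were lower there in 9 of 9 samples, Pard3b in 8, Prkci in 7 and Cldn8, Cgnl1 and Magi3 in 6 of 9. Cldn2 was highest in the small cluster led by Gkn3 and Agr2, genes of mucous cells, which also carried goblet markers, at 1070 ± 457 CPM (n = 6), where Cldn4 was lowest at 217 ± 161 CPM. Cldn6 and Cldn8 were highest in the cluster led by Scgb1c1 and Ttr, at 67.2 ± 59.5 and 40.7 ± 15.1 CPM (n = 9).

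**Figure D2:**
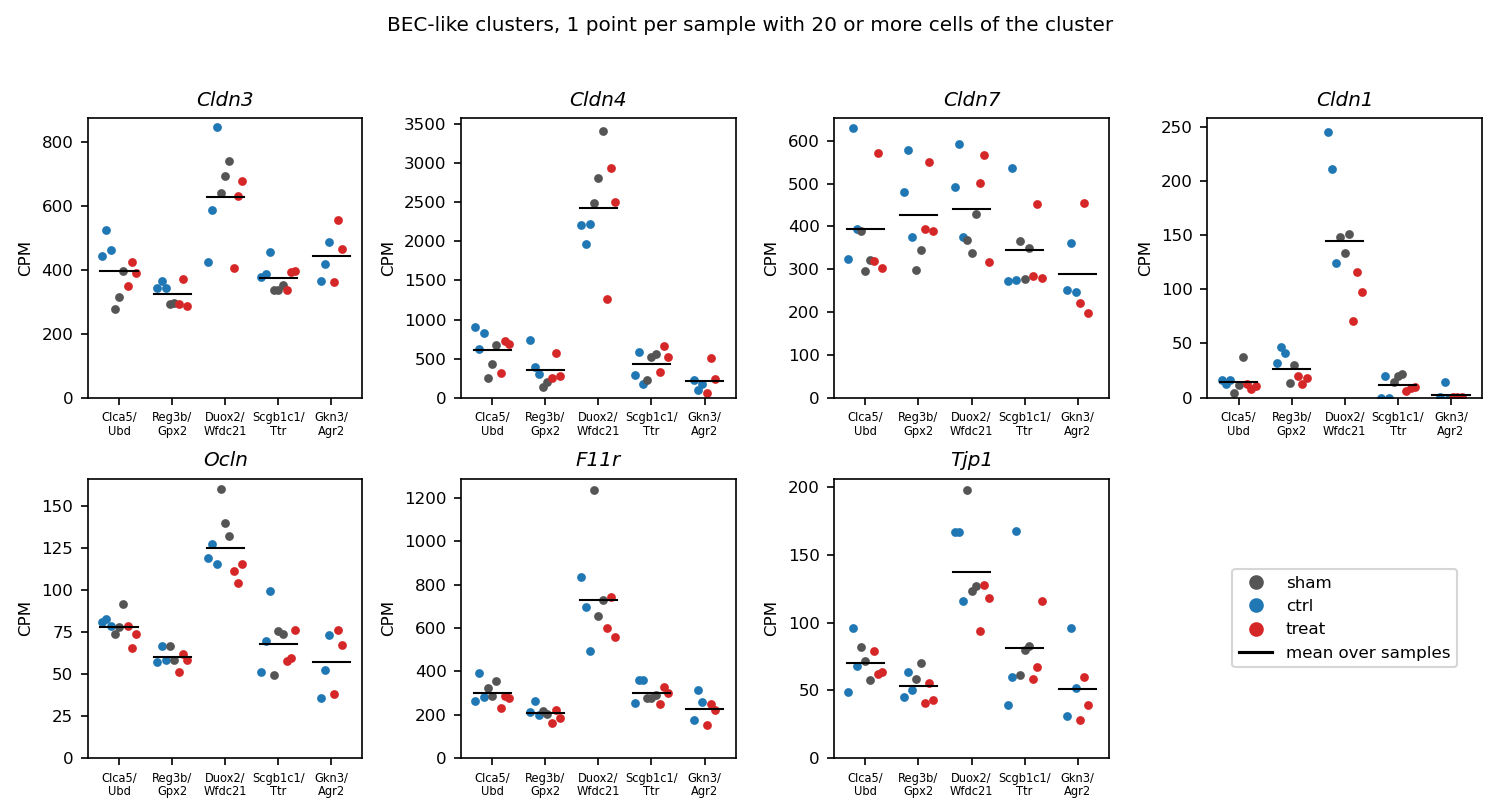
Level in CPM (vertical axes) of 7 members in the 5 BEC-like clusters, named by their leading genes on the horizontal axis. Each point is a sample with at least 20 cells of the cluster, coloured by group, and the black line is the mean over samples; Cldn1 averages 144 CPM in the Duox2/Wfdc21 cluster and at most 26.7 CPM in the other clusters, while the Cldn7 means run from 289 to 442 CPM.

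Cldn5 was uneven within the endothelium. LEC-like cells held more of it than EC-like cells in 8 of 8 samples, 8.45 times as much on average, given here as a description. The LEC-like samples ran from 579 CPM in treat day 1 and 581 CPM in ctrl day 1, over 920, 978 and 1035 CPM in sham, to 1237 CPM in ctrl day 7, 1302 CPM in treat day 3 and 1542 CPM in treat day 7. The day 1 samples of both transplanted groups were the lowest of the 8. F11r was higher in LEC-like cells in 7 of 8 samples at 1.26 times the EC-like mean, and Tjp1 in 2 of 8 at 0.834 times.

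Among the EC-like clusters, Cldn5 averaged 132 ± 81.0 CPM (n = 9) in the main cluster, led by Plvap, a protein of endothelial fenestrae, and 73.5 ± 54.4 CPM (n = 7) in the cluster led by Ccl19 and Rgs5, which also carried smooth muscle markers. The cluster of 128 cells led by Dnase1l3, with Lyve1, genes of sinusoidal endothelium, had 0 Cldn5 UMIs in both samples that held it, where 3 counts would have been 27.7 CPM (ctrl day 7) and 10.2 CPM (treat day 1). Tjp1 at 254 ± 31.8 CPM and F11r at 233 ± 55.7 CPM were present in these sinusoidal-marker cells (n = 2).

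**Figure D3:**
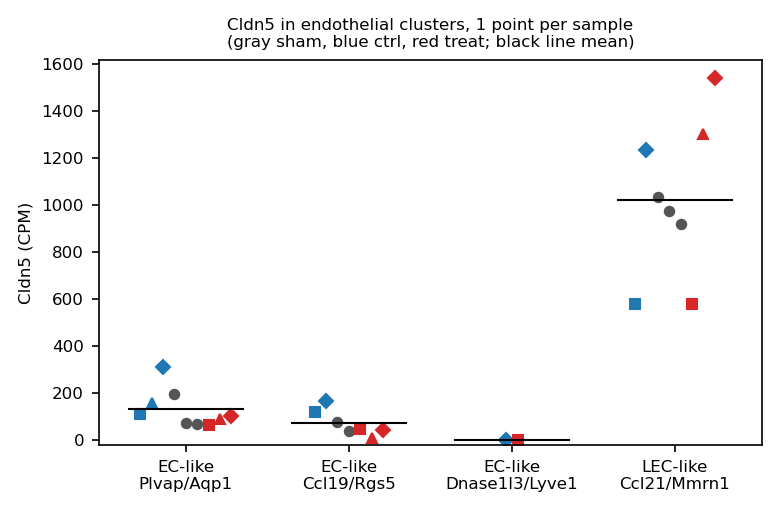
Cldn5 level in CPM (vertical axis) in the 3 EC-like clusters and the LEC-like cluster, each named by its leading genes, with 1 point per sample that had at least 20 cells (circle sham, square day 1, triangle day 3, diamond day 7) and a black line at the mean. LEC-like samples lie between 579 and 1542 CPM, above every EC-like sample, and the Dnase1l3/Lyve1 cluster lies at 0.

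The groups were then compared within BEC-like cells on TMM-normalised CPM, which corrects for differences in RNA composition between samples. Different clusters held most of the class in different samples. The Scgb1c1/Ttr cluster held 1259 of 1707 and 1570 of 1895 BEC-like cells in sham 2 and 3, and the Duox2/Wfdc21 cluster 247 of 442 in sham 1. The Reg3b/Gpx2 cluster, which carried cell cycle genes, held 1996 of 3921 in ctrl day 1 and 1135 of 2509 in treat day 1, and the Clca5/Ubd cluster held 2464 of 2873, 1938 of 2684 and 3912 of 4440 in ctrl day 7, treat day 3 and treat day 7. The Duox2/Wfdc21 cluster, with its high members, was 55.9, 17.3 and 10.8% of BEC-like cells in sham, 38.7, 35.0 and 7.07% in ctrl and 30.3, 6.45 and 2.32% in treat, in the order of sample or day.

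Against sham, ctrl BEC-like cells had more Cldn7. The sham samples were 300.3, 265 and 336 and the ctrl samples 560, 593 and 382 TMM-normalised CPM at days 1, 3 and 7, of which day 7 lay closest to sham. The log2 fold change was 0.74 ± 0.15, or 1.68-fold (edgeR quasi-likelihood test, adjusted p = 0.0234). Cldn7 was the 1 member of 8 to pass, in a comparison where 13.1% of all tested genes passed. It stayed on this side of the threshold without the Scgb1c1/Ttr cluster (0.70 ± 0.15, adjusted p = 0.0402), and the adjusted p rose to 0.110, 0.0711, 0.112, 0.0544 and 0.131 without sham 2, sham 3, ctrl day 1, day 3 and day 7 and to 0.198 within the Duox2/Wfdc21 cluster. It was also 0.151 without the day shared by ctrl and treat in the model and 0.211 when libraries were entered singly.

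Cldn3 was 442, 494 and 481 in ctrl and 381, 356 and 359 TMM-normalised CPM in sham. Its log2 fold change of 0.37 ± 0.12 did not pass (adjusted p = 0.0868). It did pass without sham 1 (0.41, adjusted p = 0.0475) and without the Duox2/Wfdc21 cluster (0.50, adjusted p = 0.0437). Without the Scgb1c1/Ttr cluster, which made up 23.5, 73.8 and 82.8% of BEC-like cells in sham and at most 4.48% in ctrl, its value was -0.028 ± 0.14. Cldn1 was 56.7, 31.3 and 29.97 in sham and 95.9, 88.3 and 25.9 TMM-normalised CPM in ctrl, Cldn4 974, 742 and 707 against 1262, 978 and 858. In both genes the ctrl samples fell from day 1 to day 7 and overlapped sham. The log2 fold changes were 0.68 ± 0.35 for Cldn1 (adjusted p = 0.232) and 0.35 ± 0.23 for Cldn4 (adjusted p = 0.339), and Ocln, F11r and Tjp1 lay at 0.13 ± 0.10, -0.0099 ± 0.26 and 0.032 ± 0.14.

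Against sham, treat BEC-like cells had no member past the threshold (0 of 8, where 2.02% of all tested genes passed). At an unadjusted p under 0.05 there were 3 members, beside 3142 of 13784 tested genes. DESeq2 called 2 members, and its calls over all genes are given further below. Cldn1 was 31.2, 13.5 and 12.2 TMM-normalised CPM at days 1, 3 and 7, where days 3 and 7 lay below every sham sample, with a log2 fold change of -1.12 ± 0.35 (adjusted p = 0.128). Tjp1 was 60.9, 69.2 and 57.7 against 100.3, 78.6 and 80.6 in sham, at -0.46 ± 0.14 (adjusted p = 0.118). Cldn7 was 433, 583 and 278, at 0.46 ± 0.15 (adjusted p = 0.130).

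The choice of cells changed this comparison. When the Scgb1c1/Ttr cluster, which made up at most 8.77% of BEC-like cells in treat, was left out of all samples, 5 of 8 members were lower in treat and passed, where 8.12% of all tested genes did. These were Cldn1 at -2.19 ± 0.28 (adjusted p = 0.00967), Cldn4 at -1.33 ± 0.22 (adjusted p = 0.0155), F11r at -0.96 ± 0.22 (adjusted p = 0.0365), Tjp1 at -0.75 ± 0.17 (adjusted p = 0.0343) and Ocln at -0.53 ± 0.13 (adjusted p = 0.0427). Leaving it out raises the weight of the Duox2/Wfdc21 cluster in sham, and whether this bears on the 5 calls was not tested. Of the cells left, the Duox2/Wfdc21 cluster held 247, 295 and 204 in sham and 761, 173 and 103 in treat, in the order of sample or day. The Clca5/Ubd cluster held 75, 83 and 47 in sham and 269, 1938 and 3912 in treat. The Reg3b/Gpx2 cluster held 5, 55 and 65 in sham and 1135, 176 and 186 in treat. Within the Duox2/Wfdc21 cluster alone no member passed, where 0.17% of all tested genes did, with Cldn1 at -0.36 ± 0.31 (adjusted p = 0.629) and Cldn4 at -0.18 ± 0.36 (adjusted p = 0.859).

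Treat against ctrl asked whether raised arterial flow went with another level of the members at matched days. No gene at all passed in BEC-like cells (0% of 13784 tested, 1640 genes at an unadjusted p under 0.05, 284 called by DESeq2), and so 0 of 8 members did (4 at an unadjusted p under 0.05, 1 called by DESeq2). All 7 members other than Cldn5 were lower in treat than in ctrl at each of the 3 days, with TMM and on plain CPM, as were 17.6% of all tested genes with TMM. Cldn5, at the level of free RNA, was lower at 3 of 3 days with TMM and at 2 of 3 on plain CPM. For Cldn1 the pairs were 31.2 against 95.9 at day 1, 13.5 against 88.3 at day 3 and 12.2 against 25.9 TMM-normalised CPM at day 7. The log2 fold change was -1.80 ± 0.36, or 3.48-fold lower (adjusted p = 0.285), DESeq2 gave -1.81 with an adjusted p of 0.000385, and edgeR with libraries entered singly gave -1.86 with an adjusted p of 0.0316, within a range of 0.000385 to 0.999 over all alternatives. Entering libraries singly treats them as separate animals, which the labels do not state, so that p-value may be too small. Within the Duox2/Wfdc21 cluster Cldn1 was 245, 211 and 125 CPM in ctrl and 70.5, 116 and 97.1 CPM in treat, beside 148, 133 and 151 CPM in sham. Treat was lower at each day there too, with a log2 fold change of -0.99 ± 0.31 (adjusted p = 0.999).

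In treat against ctrl Tjp1 stood at -0.50 ± 0.14 (adjusted p = 0.315), Cldn4 at -0.66 ± 0.23 (adjusted p = 0.365) and Ocln at -0.25 ± 0.10 (adjusted p = 0.408). Cldn4 was 515, 834 and 624 in treat, and Ocln was 72.5, 74.3 and 68.3 in treat against 85.2, 91.6 and 79.6 TMM-normalised CPM in ctrl. Within the Duox2/Wfdc21 cluster the log2 fold changes were -0.38 ± 0.25 for Tjp1, -0.10 ± 0.18 for Ocln and 0.019 ± 0.37 for Cldn4, and for Cldn4 the lowest sample was treat day 1 with 1268 CPM and the others ran from 1970 to 3408 CPM. The share of that cluster was lower in treat than in ctrl at each day (30.3 against 38.7%, 6.45 against 35.0% and 2.32 against 7.07%). Without that cluster the log2 fold changes of treat against ctrl were -1.17 ± 0.28 for Cldn1, -0.47 ± 0.47 for Cldn4, -0.20 ± 0.14 for Tjp1 and -0.12 ± 0.16 for Ocln, with 0 members called (adjusted p from 0.354 to 0.865).

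Day 7 lay below day 1 for Cldn1 over both transplanted groups, with a log2 fold change of -1.59 ± 0.43, or 3.01-fold lower (adjusted p = 0.0477). It was the 1 of 8 members to pass, where 15.2% of all tested genes did. Cldn1 dropped from 95.9 to 25.9 in ctrl and from 31.2 to 12.2 TMM-normalised CPM in treat. Within the Duox2/Wfdc21 cluster the value was -0.11 ± 0.38 (adjusted p = 0.920) and without it -0.94 ± 0.34 (adjusted p = 0.0757), and the share of that cluster went from 38.7 to 7.07% in ctrl and from 30.3 to 2.32% in treat. The call was also lost without each of sham 2, sham 3, ctrl day 1, ctrl day 7, treat day 1 and treat day 7 (adjusted p = 0.0819, 0.0647, 0.159, 0.334, 0.269 and 0.115), and with scaling by the total UMI count, doublets kept, free RNA subtracted or the Gkn3/Agr2 cluster left out (adjusted p = 0.107, 0.0667, 0.0506 and 0.0508). Cldn7 went from 560 to 382 in ctrl and from 433 to 278 TMM-normalised CPM in treat, at -0.59 ± 0.18 (adjusted p = 0.0649, and 0.0393 without sham 1).

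**Figure D4:**
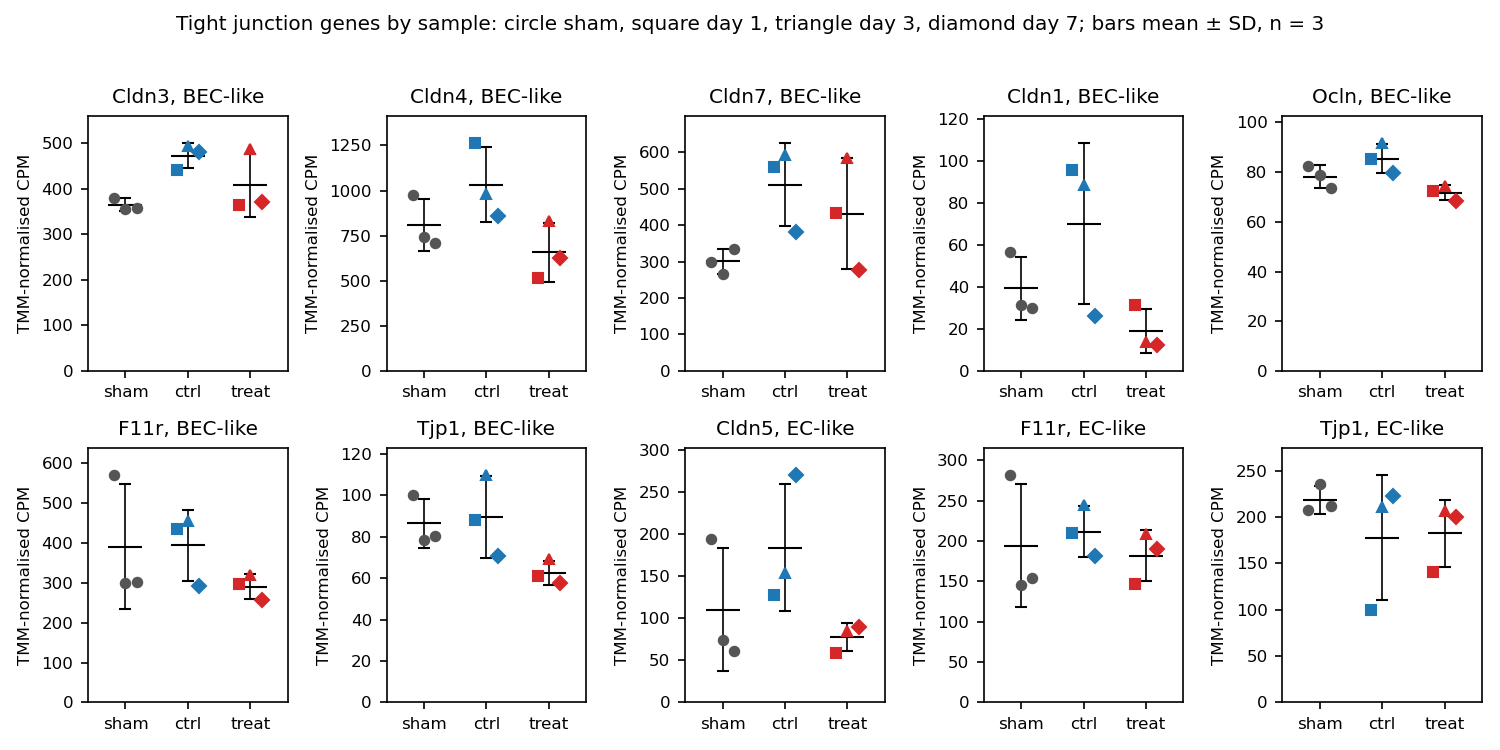
TMM-normalised CPM (vertical axes) of 7 members in BEC-like cells and of Cldn5, F11r and Tjp1 in EC-like cells, by group (horizontal axis). Each point is a sample, the horizontal line is the group mean and the bars are the SD (n = 3); in BEC-like cells the treat sample lies below the ctrl sample of the same day for each member shown, and Cldn7 in ctrl lies above sham.

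**Figure D5:**
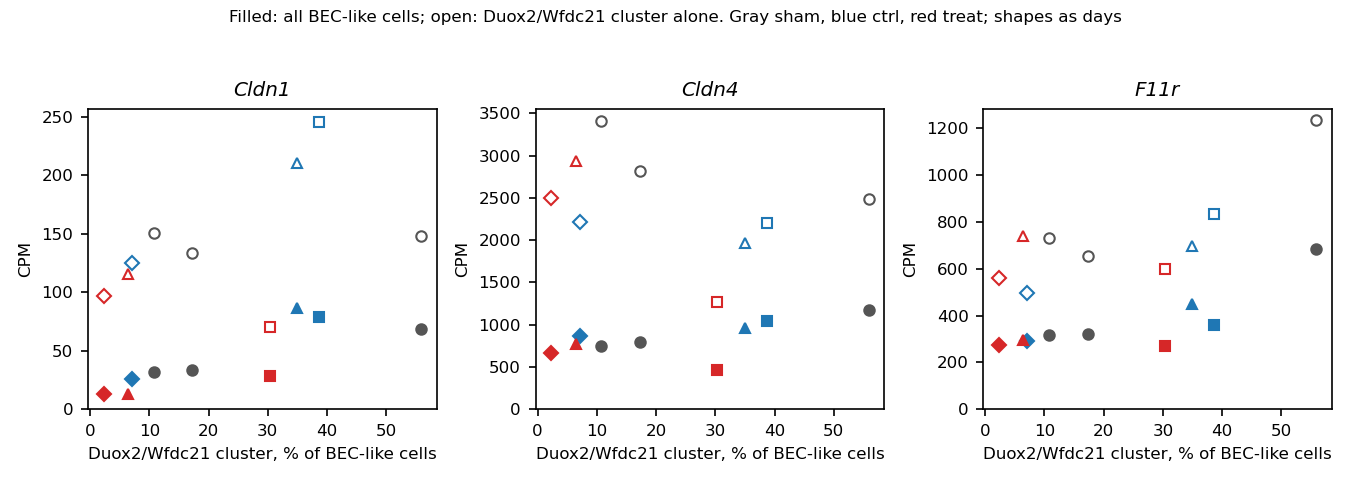
CPM of Cldn1, Cldn4 and F11r (vertical axes) against the percent of BEC-like cells that belong to the Duox2/Wfdc21 cluster (horizontal axis), with filled points for all BEC-like cells of a sample and open points for that cluster alone (circle sham, square day 1, triangle day 3, diamond day 7). The filled Cldn1 points run from 12.6 to 86.7 CPM, and the open points lie above the filled point of the same sample in every sample.

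In EC-like cells 7 members were tested, since Cldn1 was too low, and none passed in any comparison of the groups by edgeR. In ctrl against sham 2.21% of all tested genes passed and in treat against sham 0.205%. In treat against ctrl 0% passed and in day 7 against day 1 2.12%. At an unadjusted p under 0.05 there were 3, 1, 2 and 1 members in the same order, beside 2435, 1262, 830 and 1991 of 10748 tested genes. These were Cldn3, Cldn7 and Ocln in ctrl against sham and Ocln in treat against sham. In treat against ctrl they were Cldn5 and Cldn7, and at day 7 against day 1 Tjp1. Cldn3 and Cldn7 stood near the level estimated for free RNA in EC-like cells, and Ocln had 0 to 17 UMIs in a sample. DESeq2 called 1 member, Tjp1 at day 7 against day 1, and its calls over all genes are given further below.

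Cldn5 varied widely between samples, at 195, 74.7 and 61.5 in sham, 128, 153 and 270.5 in ctrl and 58.2, 84.8 and 89.6 TMM-normalised CPM in treat. Sham 1 stood well above the other sham samples. Treat was below ctrl at each of the 3 days, as were 18.1% of all tested genes, with a log2 fold change of -1.20 ± 0.40, or 2.30-fold lower (adjusted p = 0.554 by edgeR). When LEC-like cells were added to the class this value was -0.18 (adjusted p = 0.923). For ctrl against sham the Cldn5 value was 0.68 ± 0.40 (adjusted p = 0.343), and without sham 1 it was 1.38 ± 0.21 (adjusted p = 0.0175), with treat against ctrl then at -1.20 ± 0.18 (adjusted p = 0.0932).

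F11r in EC-like cells was 282, 146 and 155 in sham, 209, 244 and 182 in ctrl and 147, 209 and 190 TMM-normalised CPM in treat, with all groups overlapping and log2 fold changes from -0.22 to 0.12. Tjp1 was 208, 235 and 212 in sham, 99.9, 211 and 223 in ctrl and 141, 206 and 200.02 in treat, with treat against sham at -0.27 ± 0.18 (adjusted p = 0.580). Its day 1 samples were the lowest of both transplanted groups. Day 7 against day 1 came to 0.82 ± 0.22 for Tjp1 (adjusted p = 0.0929 by edgeR, 0.0420 by DESeq2, and 0.00727 when libraries were entered singly). The last of these treats libraries as separate animals, which the labels do not state, so its p-value may be too small.

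A wider list of 60 junction genes (62 symbols, of which Pals1 and Inadl are other names of the listed Mpp5 and Patj), grouped by their known roles, gives the setting of the members. In BEC-like against EC-like cells 51 of the 60 were tested, of which 31 were higher in BEC-like cells, 12 were lower and 8 did not pass (84.3% called against 66.9% of all tested genes), with a median log2 fold change of 1.76 against 0.02 over all tested genes. By role, 10 of 15 claudins were higher and 3 lower, 3 of 3 MARVEL proteins and 2 of 2 tricellular junction proteins were higher, 7 of 9 polarity proteins were higher, and immunoglobulin-like adhesion proteins were split, with 3 higher and 4 lower of 7. Of 15 scaffold proteins 6 were higher and 5 lower. Outside the members the largest differences toward the epithelium were Tjp3 (7.37 ± 0.23), Cldn2 (7.09 ± 0.26), the apical polarity protein Crb3 (7.07 ± 0.31) and the tricellular protein Ildr1 (6.84 ± 0.27). The largest toward the endothelium were the adhesion molecules Jam2 (-8.90 ± 0.24), Jam3 (-7.49 ± 0.25) and Esam (-6.65 ± 0.13) and the claudin Cldn22 (-8.90 ± 0.45), which reached no more than 13.8 CPM in EC-like cells. Esam averaged 485 ± 71.5 CPM in EC-like but 35.0 ± 27.3 CPM in LEC-like cells, and Jam2 283 ± 121 against 4.25 ± 2.41 CPM, the reverse of the order of Cldn5.

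Across the groups the share of the list that passed in BEC-like cells was 9.8% in ctrl against sham (13.1% of all tested genes), 1.96% in treat against sham (2.02%), 0% in treat against ctrl (0%) and 11.8% at day 7 against day 1 (15.2%), close to or below the background. In BEC-like cells 2 of 51 rose and 3 fell in ctrl against sham, and 0 rose and 1 fell in treat against sham. In treat against ctrl 0 passed (9 at an unadjusted p under 0.05, beside 1640 of 13784 tested genes), and 3 rose and 3 fell at day 7 against day 1. The medians of the list were -0.01, -0.17, -0.16 and 0.10, beside -0.03, -0.01, 0.05 and 0.02 over all tested genes. Cldn8, a barrier claudin, was lower in both transplanted groups. It was 43.2 ± 1.58 in sham, 13.0 ± 1.26 in ctrl and 17.6 ± 0.548 TMM-normalised CPM in treat (SD, n = 3). Its log2 fold changes were -1.73 ± 0.12 in ctrl (adjusted p = 0.00111) and -1.29 ± 0.11 in treat (adjusted p = 0.00638), and within the Duox2/Wfdc21 cluster -1.17 (adjusted p = 0.0959) and -1.06 (adjusted p = 0.218). Without sham 2, treat day 1 or treat day 7 the adjusted p in treat against sham was 0.0657, 0.0515 and 0.0501.

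Of the other listed genes, Crb3 rose in ctrl BEC-like cells against sham by 0.54 ± 0.12, Amot, a scaffold of cell junctions, fell by 0.76 ± 0.13 on the log2 scale, and Jam2 was 1.30 ± 0.704 in sham and 0.303 ± 0.160 TMM-normalised CPM in ctrl. Jam2 had 1 to 21 UMIs in a BEC-like sample, and the estimate for free RNA came to 54.4, 39.7 and 72.9% of them in sham and 79.1, 152 and 155% in ctrl. With free RNA subtracted the log2 fold change was -3.02 (adjusted p = 0.0636), and without the Scgb1c1/Ttr cluster it was -0.69 (adjusted p = 0.653). At day 7 against day 1 the polarity genes Pard3b (1.15 ± 0.19) and Pard3 (0.74 ± 0.13) and Amot (0.76 ± 0.15) rose, and Ybx3, a transcription factor that binds ZO-1 (-1.15 ± 0.27), and Cldnd1 (-0.50 ± 0.13) fell. Within the Duox2/Wfdc21 cluster none of these 5 genes passed, with Pard3b at 0.38, Pard3 at 0.12, Amot at 0.83 and Ybx3 at -0.73, and Cldnd1 turned sign at 0.057 (adjusted p = 0.931). With scaling by the total UMI count Ybx3 (adjusted p = 0.105) and Cldnd1 (-0.24, adjusted p = 0.332) also lost their calls. The call of Cldnd1 was lost as well with no filter on low counts, with doublets kept and without the Scgb1c1/Ttr cluster (adjusted p = 0.0525, 0.0567 and 0.0843). In EC-like cells 35 of the 60 were tested, of which 5.71% passed in ctrl against sham (2.21% of all tested genes) and 2.86% at day 7 against day 1 (2.12%), that is 2 genes and 1 gene. Cldn15 rose (1.99 ± 0.37) and Lsr, a tricellular junction protein, fell (-1.50 ± 0.31) in ctrl against sham, and Ybx3 fell (-0.94 ± 0.18) at day 7 against day 1. In treat against sham and treat against ctrl 0 of 35 passed, where 0.205% and 0% of all tested genes did. At an unadjusted p under 0.05 there were 3 and 7 of the list, beside 1262 and 830 of 10748 tested genes. Crb3 came to 0.31 (adjusted p = 0.244) without the Scgb1c1/Ttr cluster. It lost its call with scaling by the total UMI count (0.30, adjusted p = 0.109), with libraries entered singly (adjusted p = 0.178) and without the shared day (adjusted p = 0.0983). In ctrl against sham Amot lost its call without the shared day (-0.72, adjusted p = 0.133) and within the Duox2/Wfdc21 cluster (-0.70, adjusted p = 0.0798). Crb3, Amot, Jam2, Cldn15, Lsr and the day 7 genes lost their calls in several of the fits without a single sample. In EC-like cells Lsr stood at 9.49 in sham and 3.47 TMM-normalised CPM in ctrl. Its call was also lost with libraries entered singly, without the shared day, with lymphatic cells and without the Rgs5 cluster (adjusted p = 0.0669, 0.119, 0.0579 and 0.0638). Ybx3 in EC-like cells lost its call with scaling by the total UMI count (adjusted p = 0.0668).

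The genes whose mean level over the 15 named classes was most like that of a member were found with Pearson's r on log2(CPM + 1), over points that share libraries. Cldn3 was closest to the keratin Krt8 (r = 0.99), the epithelial transcription factor Elf3 (0.99) and the splicing factor Esrp1 (0.99), and Cldn4 to Tmem79 (1.00), the keratin Krt19 (0.99) and Tmc5 (0.99). Krt8, Elf3 and Krt19 are among the BEC markers that named the classes, so their high r with an epithelial gene is in part set by the naming. Cldn7 was closest to Hgfac, the protease Tmprss2 and Lrrc26 (each 0.99), and Ocln to Ildr1 (0.94), Spint1 (0.91) and RGD1559575 (0.90). Cldn5 was closest to Cytl1 (0.98), Grifin (0.98) and Dysf (0.97), Tjp1 to Npdc1 (0.97), Nfib (0.96) and Epn2 (0.96), F11r to Sgsm3, Stap2 and Cadps2 (each 0.95), and Cldn1 to Tpd52l1 (0.87), Tango2 (0.80) and Carmil1 (0.80). Among the members, Cldn3, Cldn4 and Cldn7 ran together over the classes (r from 0.98 to 0.99), Ocln followed them at 0.79 to 0.85, and Cldn1 did not (0.23 to 0.33). The class means of Cldn1 include 34.8 CPM in mast-like cells (n = 4) and 0 in goblet-like cells (n = 3), both resting on few counts. How far these points set its r was not tested. In the RefSeq gene order of the GRCr8 assembly Cldn3 and Cldn4 are neighbours, Cldn1 lies beside Cldn16 and Ocln beside Marveld2.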

How the data were processed

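Single-cell suspensions of rat bile duct were profiled by droplet-based 3' sequencing. The deposited matrices hold UMI counts per gene and barcode, all barcodes included, made by the authors with Cell Ranger (the submitters' processing notes list Cell Ranger 5.0.1 and Seurat 3.2.0); the genome build is not given in the sources used here. A barcode was kept when it had more than 400 and fewer than 6000 genes, with mitochondrial UMIs below 25% and hemoglobin UMIs below 3%, and cells above the 92.5th percentile of a simulated-doublet score in each library were removed. Cells were clustered on 2000 variable genes without the 60 junction genes. The settings were 30 principal components, a graph weighted by shared nearest neighbours and Leiden resolution 0.9 (scikit-learn 1.9.0, igraph 0.11.9, leidenalg 0.10.2). Clusters were named from marker lists, needing 3 detected markers. Cell cycle genes were dropped as a competing class after the clusters were seen and before any test.

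Counts were summed per class and sample and tested with edgeR 4.0.16 (quasi-likelihood, TMM, filterByExpr, Benjamini-Hochberg over all tested genes) in R 4.3.3, with terms for sham, day and flow, so that ctrl and treat share the day term. BEC-like and EC-like sums were compared with the sample as a block. DESeq2 1.42.0 was an alternative. Samples gave 9426077 to 194458553 UMIs in 2285 to 32055 cells. The procedure was tested on simulated data. The named genes are the members and, per comparison, up to 4 listed junction genes with the largest change in each direction among those past the threshold. The members and lists were chosen with earlier results of these data known. Fits within or without the Duox2/Wfdc21 cluster, and without the Rgs5, Gkn3/Agr2 or Dnase1l3 cluster, were added after seeing the data.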

Additional observations from a re-analysis of the deposited data

Results flagged for a closer look

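Cldn7 was flagged because its change between groups differed between BEC-like and EC-like cells by a test of the difference itself. The log2 fold change of ctrl against sham was 3.71 ± 0.64 higher in BEC-like than in EC-like cells (edgeR interaction term, adjusted p = 0.0091), and that of treat against ctrl was lower there, with a difference of -3.10 ± 0.56 (adjusted p = 0.0499). Of 13320 tested genes, 552 and 36 passed these tests. In EC-like cells Cldn7 was 1.30, 1.97 and 5.67 in sham, 0.549, 0.513 and 0.253 in ctrl and 1.53, 4.22 and 2.77 TMM-normalised CPM in treat, and the estimate for free RNA came to 51.2 to 824% of its UMIs there. These levels come from 1 or 2 UMIs in each ctrl sample, 2 to 13 in sham and 12 to 26 in treat. The differences therefore set the BEC-like change beside counts at the level of free RNA and are not read as a change in endothelial cells.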

How the results depend on the processing

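In BEC-like against EC-like cells all 8 members kept their call and direction under every alternative run. In the group comparisons, 419 of 557 values of single genes named here kept direction and side of the threshold over the alternatives, 122 lost their call, 13 gained one and 3 turned sign. For ctrl against sham in BEC-like cells, 1 member was called in the report, 2 by DESeq2, 0 with each library as its own sample, 0 within the Duox2/Wfdc21 cluster, 2 without it and 0 to 2 with a sample left out. For treat against sham it was 0 in the report, 2 by DESeq2 and 5 without the Scgb1c1/Ttr cluster, and for treat against ctrl 0 in the report, 1 by DESeq2 and 1 with each library as its own sample. For day 7 against day 1 it was 1 in the report, 2 by DESeq2, 0 scaled by the total UMI count, 0 with doublets kept, 0 with free RNA subtracted, 0 without the Gkn3/Agr2 cluster, 0 within the Duox2/Wfdc21 cluster, 0 without it and 0 to 2 with a sample left out. In EC-like cells the report had 0 throughout, against 1 by DESeq2 and 1 with each library as its own sample for day 7 against day 1, and 0 to 1 with a sample left out for ctrl against sham. In the report 13.1% of all tested genes passed in BEC-like ctrl against sham and 15.2% at day 7 against day 1. The share over all genes is not given here for every alternative, so these counts are not read as a result about the members. Signs turned for Cldn3 in ctrl against sham without the Scgb1c1/Ttr cluster (-0.028), and within the Duox2/Wfdc21 cluster for Cldn4 in treat against ctrl (0.019) and Cldnd1 at day 7 against day 1 (0.057). The cause was not tested.

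The day shared by ctrl and treat is a term of the model, and the labels name no pairing of ctrl and treat animals. Without the day terms, 0 members were called in ctrl against sham and Cldn7 stood at 0.76. The calls over all genes in BEC-like cells then went from 1799 to 541.

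Calls over all genes in BEC-like cells, for ctrl against sham, were 1799, but 845 without the Scgb1c1/Ttr cluster, 231 within the Duox2/Wfdc21 cluster and 96 to 3092 with a sample left out. For treat against sham they were 279, but 1287 by DESeq2, 470 with doublets kept, 423 at resolution 2, 174 without the Gkn3/Agr2 cluster, 34 without the day terms, 1119 and 737 without the Scgb1c1/Ttr and Duox2/Wfdc21 clusters, 15 within the latter and 9 to 987 with a sample left out. For day 7 against day 1 they were 2091, but 3771 with each library as its own sample, 101 and 3730 within and without the Duox2/Wfdc21 cluster and 1 to 4006 with a sample left out. For treat against ctrl they were 0, but 284 by DESeq2, 107 with libraries entered singly and 1 within the Duox2/Wfdc21 cluster. In EC-like cells the calls for ctrl against sham, treat against sham, treat against ctrl and day 7 against day 1 were 238, 22, 0 and 228, but 612, 199, 34 and 503 by DESeq2, 643, 197, 32 and 521 with no filter on low counts and 466, 98, 13 and 2152 with libraries entered singly. Of the others, ctrl against sham gave 120 without the day terms and 611 with lymphatic cells, day 7 against day 1 gave 387 with lymphatic cells, and treat against sham gave from 1 (without the day terms) to 55 (total UMI count). With a sample left out, the EC-like counts ran over 8 to 545, 0 to 81, 0 to 2 and 0 to 751. Scaling by the total UMI count moved the median of all genes by -0.24, -0.19 and 0.26 in ctrl against sham, treat against sham and day 7 against day 1 of BEC-like cells, and the higher share of calls from 50.6 to 18.7%, 64.9 to 39.5% and 46 to 81.9%. In EC-like cells that share went from 54.5 to 36.4% in treat against sham and from 70.2 to 83.3% at day 7 against day 1. Depth was low for Cldn5 in BEC-like cells, with 0 to 11 UMIs in a sample, and Cldn1 in EC-like cells was under the filter on low counts.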

Other observations

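Some members had counts outside the BEC-like and EC-like classes, given here as values in plain CPM. Cldn1 averaged 34.8 ± 20.3 CPM in mast-like cells (n = 4), from 5 UMIs in ctrl day 7 and 6, 1 and 13 UMIs in treat days 1, 3 and 7. Ocln averaged 12.7 ± 3.36 CPM in macrophage-like, 11.4 ± 3.79 CPM in B-like (n = 6) and 7.57 ± 3.92 CPM in NK&T-like cells, against 1.28 ± 1.02 CPM in neutrophil-like cells (n = 8). In the cluster that carried 7 of 7 tuft cell markers and was led by Rgs13, Cldn3 averaged 406 ± 46.5, Cldn7 404 ± 117, F11r 331 ± 63.2, Cldn4 280 ± 92.0, Ocln 56.8 ± 13.1, Tjp1 39.1 ± 13.2 and Cldn1 1.14 ± 1.40 CPM (n = 9). Its Cldn1 lay below the BEC-like level of the same sample throughout, since its highest sample was 3.70 CPM and the lowest BEC-like sample 12.6 CPM.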
